A study of Mus musculus with 12 samples.

Results

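The clustered protocadherins are 58 of the 45777 genes in the deposited gene table, taken by symbol: 14 of the alpha cluster (Pcdha1 to Pcdha12, Pcdhac1 and Pcdhac2), 22 of the beta cluster (Pcdhb1 to Pcdhb22) and 22 of the gamma cluster (Pcdhga, Pcdhgb and Pcdhgc genes). They were followed in astrocytes purified from the cerebral cortex of mice at postnatal day 14 by immunopanning and magnetic beads. The design crossed genotype with early life stress in 4 groups of 3 bulk RNA libraries each. Animals of every group carried the floxed glucocorticoid receptor gene Nr3c1 (Nr3c1 flox/flox) and received 4-hydroxytamoxifen on postnatal days 5 to 7. The 2 groups called Cre- carried no recombinase, and the 2 groups called AGR cKO also carried Aldh1l1-CreERT2, a tamoxifen-activated recombinase driven from the promoter of the astrocyte gene Aldh1l1. Within each genotype, control pups were compared with ESD pups, which were separated from their dam for 3 hours daily from postnatal day 1 to 14. The labels do not say whether the 3 libraries of a group are separate animals or pools, so p-values measure only the spread between these libraries.

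Clustered protocadherins are cadherin-like adhesion proteins of the cell surface that bind the same isoform on a neighbouring cell. In neurons each cell switches on its own combination of isoforms by promoter choice, which depends on CTCF and cohesin looping and on DNA methylation, and this gives branches of 1 cell a way to recognise each other. The C-type isoforms at the end of the alpha and gamma clusters are less subject to that choice and tend to be used broadly, and gamma isoforms on astrocytes are known from work on contacts between astrocytes and neurons.

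All 58 genes lie on mouse chromosome 18 in build mm10, in the order alpha (36930285 to 37188897), beta (37264998 to 37521419) and gamma (37661775 to 37841873). Each alpha or gamma gene joins its own large variable exon, which encodes the adhesion domain, to 3 constant exons that encode the shared cytoplasmic end. In the GENCODE M21 annotation the alpha constant exons are 59, 89 and 2712 bases long and belong to 14 of 14 alpha transcripts, and the gamma ones are 59, 89 and 1971 or 1968 bases long and belong to 21 of 21 matched gamma transcripts. Of all stretches of 100 bases in an alpha transcript, 47.7% to 58.4% also occurred in another member, and in a gamma transcript 40.7% to 49.6%. Beta genes consist of a single exon and shared 0% to 7.73%, most in Pcdhb21 (7.73%) and Pcdhb22 (5.47%). Reads from a shared stretch cannot be placed on 1 alpha or gamma gene by sequence, and how the authors' counting divided them is not given in the sources used here. The level of a single alpha or gamma gene is therefore uncertain by that division, and members of a cluster are not independent of each other. Nr3c1 lies on the same chromosome, 1.57 Mb beyond the gamma cluster, with the floxed allele in all 4 groups.

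Total counts per library ran from 42603546 to 52130081, of which the 58 genes took 0.214% to 0.281%. Nr3c1 itself stood at 199 to 237 CPM (read counts scaled to library size) in the 6 Cre- libraries and at 66.6 to 108 CPM in the 6 AGR cKO libraries, lower in every AGR cKO library; which exon is deleted is not given in the labels. Its log2 fold change averaged over rearing was -1.20 ± 0.08 (SE, edgeR, adjusted p = 0.000203). Astrocyte markers were high: Slc1a3, a glutamate transporter, had a mean of 1836 FPKM (fragments scaled by transcript length and library size) and Aqp4, the water channel of endfeet, 363 FPKM. Neuronal markers were low but not absent, with Snap25 at 2.37 and Rbfox3 at 0.288 FPKM, and Cldn5 of endothelium (53.9 FPKM) and Csf1r of microglia (28.2 FPKM) were present. Summed markers of oligodendrocyte precursors ran from 306 to 475 CPM and those of oligodendrocytes from 219 to 336 CPM. For AGR cKO ESD against Cre- ESD their median log2 fold changes were -0.52 (2 higher, 4 lower) and -0.215 (1 higher, 4 lower). For AGR cKO control against Cre- control these were -0.10 (2 higher, 4 lower) and 0.13 (3 higher, 2 lower). All 6 ependymal markers were negative for AGR cKO averaged over rearing (median -0.67). In edgeR 4 of them were called lower at an adjusted p under 0.05, where 3.49% of all genes were called in either direction. Values for 3 libraries are listed in the order of their replicate numbers throughout. In bulk RNA, fewer cells of a type and less RNA per cell cannot be told apart.

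The gamma cluster supplied nearly all clustered protocadherin RNA in these astrocytes. It made up 94.7% to 97.4% of the summed FPKM of the family in the 12 libraries, against 2.51% to 5.04% for beta and 0.122% to 0.26% for alpha. Mean FPKM over 12 libraries ran from 1.53 to 258 in gamma (median 7.68), from 0.0222 to 1.92 in beta (median 0.651) and from 0.00173 to 0.32 in alpha (median 0.0382). The gamma genes were thus above every beta gene with 1 exception, Pcdhgb8, annotated as a transcribed pseudogene, which at 1.53 FPKM lay below Pcdhb17 (1.92), Pcdhb22 (1.62) and Pcdhb14 (1.56). Genes further along each cluster tended to stand higher: the last 11 gamma genes along the chromosome had a median of 11.4 FPKM and the first 11 one of 5.76, while the last and first 11 beta genes had 0.886 and 0.505 FPKM.

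**Figure D1:**
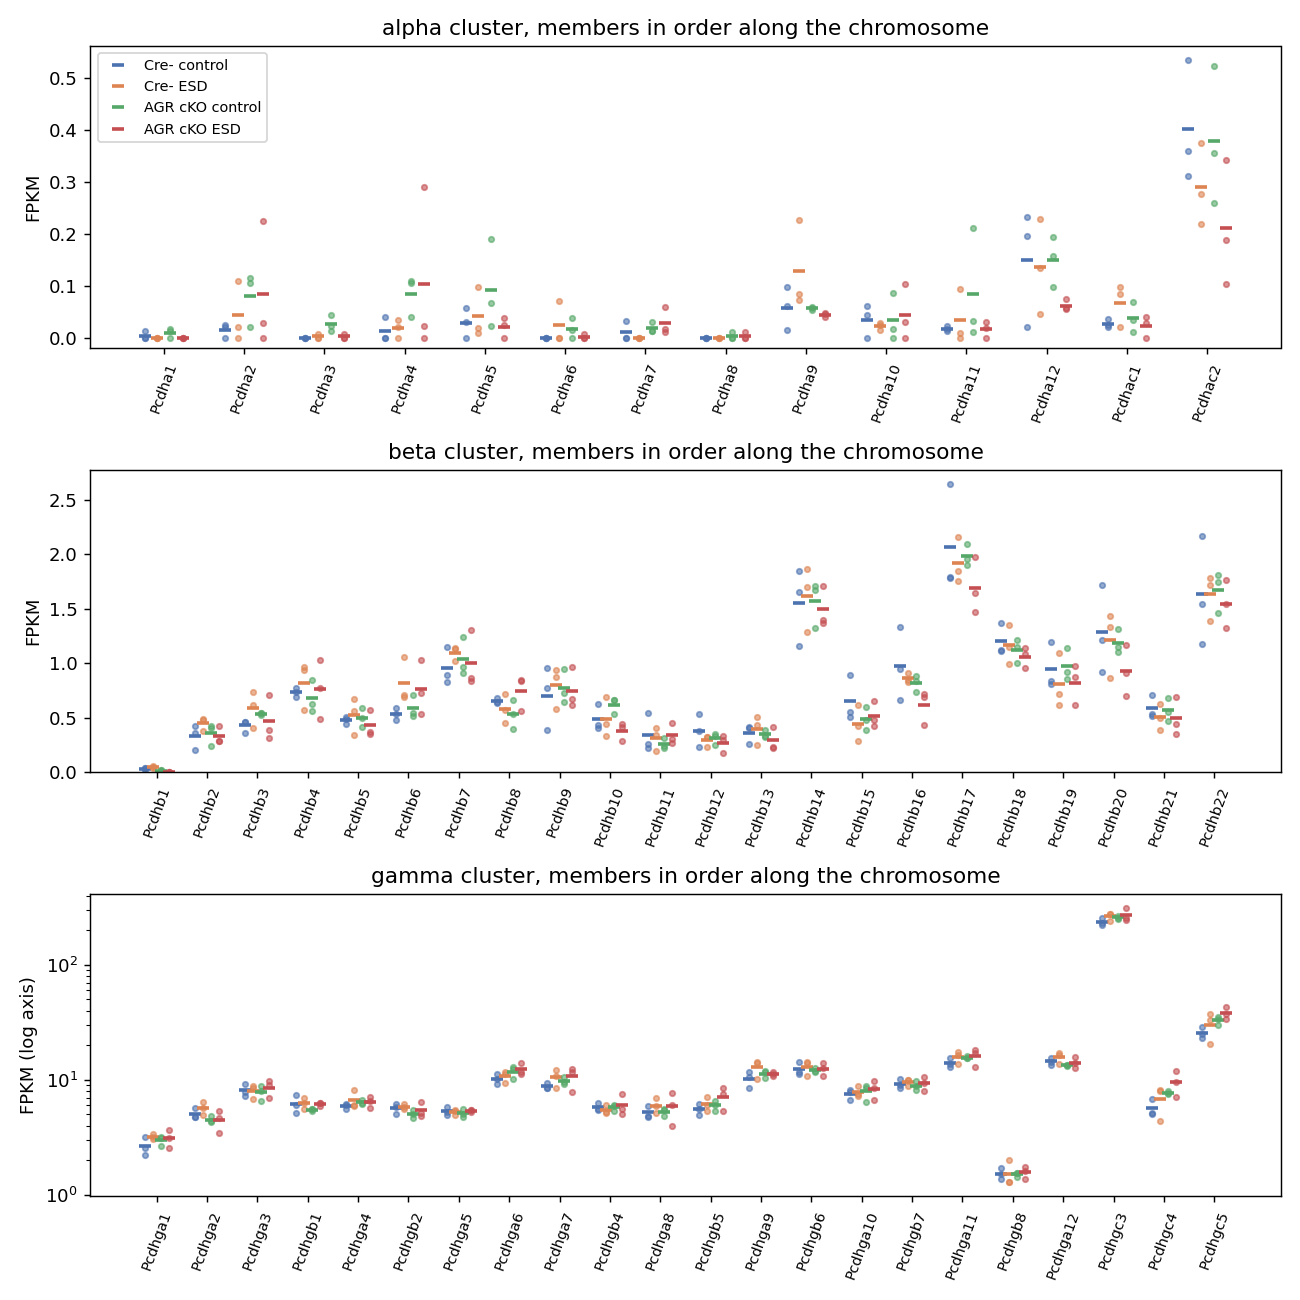
FPKM of each clustered protocadherin in the order of the genes along the chromosome, in 3 panels for the alpha, beta and gamma clusters (gamma on a log axis). Points are single libraries coloured by group (3 per group) and dashes are group means. Averaged over all 12 libraries, gamma genes run from 1.53 to 258 FPKM, with Pcdhgc3 far above all others, and alpha genes reach 0.32 at most.

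Pcdhgc3, a C-type gamma isoform, was the dominant member. It stood at 223, 257 and 231 FPKM in Cre- control, 278, 277 and 241 in Cre- ESD, 252, 268 and 254 in AGR cKO control and 313, 243 and 254 in AGR cKO ESD libraries. That is 53.1% to 59.7% of all gamma FPKM, and rank 108 of 45777 genes by mean level. Pcdhgc5, the last gene of the cluster, followed at a mean of 31.7 FPKM (rank 1679), and Pcdhgc4, between them, at 7.43 FPKM (rank 7072), so the C-type isoforms were not uniformly high. The 12 gamma A genes spanned 2.99 to 15.4 FPKM (median 8.02), with Pcdhga11 (15.4) and Pcdhga12 (14.4) highest and Pcdhga1 (2.99) lowest. The 7 gamma B genes spanned 1.53 to 12.5 FPKM (median 6.04), from Pcdhgb8 to Pcdhgb6. Gamma A took 21.1% to 25.6% and gamma B 9.51% to 11.3% of gamma FPKM in single libraries. All 22 gamma genes had counts in all 12 libraries.

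Beta genes were expressed at low levels, with counts in every library for 21 of 22. The highest was Pcdhb17, at 9.16, 6.7 and 6.56 CPM in Cre- control, 7.9, 6.75 and 6.47 in Cre- ESD, 7.0, 6.99 and 6.81 in AGR cKO control and 5.56, 7.1 and 6.19 in AGR cKO ESD. Its groups overlapped in every pairwise comparison. Pcdhb22, at a mean of 1.62 FPKM, had 7.09, 4.15 and 5.32 CPM in Cre- control, 6.1, 5.89 and 4.81 in Cre- ESD, 4.59, 6.04 and 5.85 in AGR cKO control and 4.7, 5.21 and 6.19 in AGR cKO ESD. Pcdhb14 (1.56 FPKM) had 6.76, 4.57 and 6.37 CPM, then 6.54, 7.13 and 4.99, then 6.04, 4.95 and 6.29, then 5.56, 6.49 and 5.39 in the same order of groups. These 3 genes and the next, Pcdhb20, all lie in the later part of the cluster. Pcdhb20 (1.15 FPKM) had 6.21, 3.58 and 4.62 CPM, then 5.04, 5.43 and 3.31, then 3.99, 4.87 and 4.09, then 3.55, 4.36 and 2.75. The library Cre- control 1 was the highest of the 12 for Pcdhb17, Pcdhb22 and Pcdhb20 and next to the highest for Pcdhb14. The beta gene without counts in every library was Pcdhb1, the first of the cluster, with 0 to 8 counts per library.

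Alpha genes were close to the detection limit, which 3 counts place at 0.0575 to 0.0704 CPM. The whole cluster collected 2860 counts over 12 libraries, against 37256 for beta and 1314695 for gamma, and 6 to 14 of its 14 genes had any count in a given library. Only Pcdha9, Pcdha12 and Pcdhac2 had counts in all 12. Pcdhac2, the C-type isoform next to the constant exons, was the highest at a mean of 0.32 FPKM, with 149, 101 and 86 counts in Cre- control, 119, 71 and 82 in Cre- ESD, 157, 75 and 97 in AGR cKO control and 113, 33 and 54 in AGR cKO ESD. The other C-type isoform, Pcdhac1, had 10, 7 and 6, then 25, 29 and 6, then 3, 19 and 9, then 13, 9 and 0 counts in the same order. Neither C-type gene separated any pair of groups. Pcdha12 had 50, 60 and 6, then 66, 40 and 13, then 53, 42 and 25, then 17, 22 and 16 counts, and Pcdha9 had 26, 5 and 16, then 22, 26 and 63, then 16, 15 and 16, then 15, 12 and 13. Other alpha genes were patchy: Pcdha2 had 6, 7 and 0, then 7, 34 and 0, then 6, 29 and 30, then 9, 0 and 61 counts, and Pcdha4 was at 0 in 4 libraries and at 85 in AGR cKO ESD 2. Which alpha gene was seen therefore differed from library to library within a group.

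**Figure D2:**
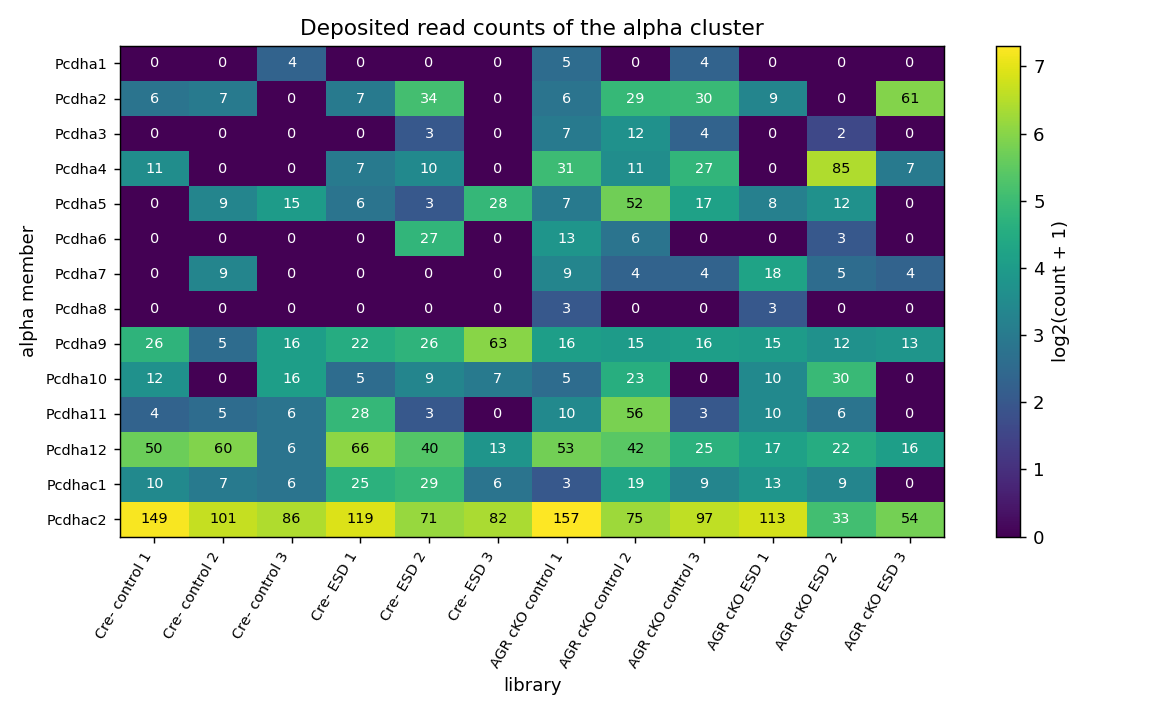
Deposited read counts of the 14 alpha genes (rows, in order along the chromosome) in the 12 libraries (columns); the colour is log2(count + 1) and the number in each cell is the count. Pcdhac2 and Pcdha12 are counted in all libraries, while Pcdha1, Pcdha3, Pcdha6 and Pcdha8 are at 0 in most.

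That patchiness was measured as the biological coefficient of variation, the relative spread between libraries of a group beyond counting error. Its median was 0.832 over the 8 alpha genes tested, against 0.308 over the 4687 genes in the same range of abundance. For the 21 tested beta genes it was 0.228 and for 3879 genes in their range 0.229. For gamma it was 0.129 against 0.113 over 11469 genes. Each range ran from the lowest to the highest tested member, so its genes were not matched to the members in abundance. In alpha, Pcdhac2 set the upper end, with group means of 1.38 to 2.54 CPM. Group means of the other tested alpha genes were 0.08 to 0.879 CPM. Alpha genes thus varied more than the median gene of their range, and beta and gamma genes about as much. How far low abundance or the division of shared reads enters the alpha spread was not tested. Gm37013, a model that reads through from an alpha variable exon to gamma constant exons, had 12 counts in AGR cKO ESD 1 and 0 in the other 11 libraries.

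Group comparisons used the 51 members that passed the filter on low counts: 8 alpha, 21 beta and 22 gamma genes. The 7 left out were Pcdha1, Pcdha3, Pcdha6, Pcdha7, Pcdha8, Pcdha11 and Pcdhb1. No clustered protocadherin was called in any of the 7 comparisons at an adjusted p under 0.05 in edgeR, and DESeq2 and limma-trend on TPM called 0 as well. Over all 19163 genes edgeR called 0% for stress in Cre-, 0% for stress in AGR cKO, 0.0157% for genotype in control, 1.04% for genotype in ESD, 0% for the interaction, 3.49% for genotype averaged over rearing and 0% for stress averaged over genotypes. At an unadjusted p under 0.05 the members counted 2 of 51 for stress in Cre-, 0 for stress in AGR cKO, 0 for genotype in control, 2 for genotype in ESD, 0 for the interaction, 6 for genotype averaged over rearing and 1 for stress averaged over genotypes. These shares stayed below those of all genes, which were 7.19%, 7.58%, 10.2%, 15.6%, 4.49%, 20% and 10.4% in that order.

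With the receptor intact, the effect of separation from the dam is read from Cre- ESD against Cre- control. The summed gamma level was 1959, 2389 and 2115 CPM in Cre- control and 2538, 2566 and 2133 CPM in Cre- ESD libraries, so the groups overlapped. Of the 22 gamma genes 20 had a positive log2 fold change, with a median of 0.15 and a range of -0.07 to 0.33, where 45.9% of all genes were positive with a median of -0.02. The gamma median depended on single libraries: it was 0.08 without Cre- ESD 2 and 0.10 without Cre- ESD 1, and 0.23 without Cre- ESD 3. Astrocyte markers were positive in 6 of 8 (median 0.09) and neuron markers in 9 of 10 (median 0.18). Endothelial markers were positive in 0 of 8 (median -0.26) and ependymal markers in 0 of 6 (median -0.57). The part of these cells in the gamma values was not tested. Pcdhga9 had the smallest p of the gamma genes: it stood at 42.1, 57.1 and 62.2 CPM in control and 73.5, 75.8 and 54.3 CPM in ESD libraries (0.33 ± 0.14, edgeR adjusted p = 0.691). Beta genes were split, 11 higher and 10 lower with a median of 0.01 that took either sign as single libraries were left out (-0.133 to 0.165), and their sum was 79.5, 60.9 and 64.4 CPM against 77.9, 73.1 and 56.6 CPM. Pcdhb6 was the only member whose groups did not overlap, where 4.68% of all genes did not overlap upward and 6.39% downward: 2.25, 2.2 and 1.95 CPM in control against 2.75, 4.27 and 2.85 CPM in ESD (0.63 ± 0.26, edgeR adjusted p = 0.691). Alpha genes were 5 higher and 3 lower, from -0.56 to 1.45, with an alpha sum of 5.84, 4.75 and 3.63 CPM against 5.77, 5.04 and 4.34 CPM.

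The same question with the receptor gene recombined in astrocytes is put to the 2 AGR cKO groups. Gamma genes were again on the high side, 22 of 22 with a median log2 fold change of 0.15 and a range of 0.07 to 0.39, against 51% positive and a median of 0.00 over all genes. Their sum was 2153, 2358 and 2211 CPM in control and 2879, 2373 and 2307 CPM in ESD libraries, and the highest value belonged to AGR cKO ESD 1. Pcdhgc5 did not overlap, at 171, 175 and 155 CPM in control and 235, 192 and 181 CPM in ESD (0.28 ± 0.19, edgeR adjusted p = 0.782). Neither did Pcdhgb1, at 26.7, 27.5 and 28.6 CPM against 32, 32.7 and 33.8 CPM (0.25 ± 0.13, edgeR adjusted p = 0.711). These were 2 of 51 members, where 7.94% of all genes did not overlap in that direction. Astrocyte markers were positive in 8 of 8 in this comparison (median 0.15), with a sum of 37784 to 40469 CPM in control and 37161 to 49122 CPM in ESD libraries. Endothelial markers were positive in 0 of 8 (median -0.29), neuron markers in 0 of 10 (-0.82) and ependymal markers in 0 of 6 (-0.245). Mural and fibroblast markers were positive in 1 of 6 (-0.70) and microglial markers in 4 of 8. The part of these cells in the gamma values was not tested.

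In all, 4 members lay lower in every AGR cKO ESD library than in every AGR cKO control library, where 8.65% of all genes did. Pcdhb10 was at 1.94, 1.67 and 2.06 CPM in control and 0.943, 1.31 and 1.46 CPM in ESD (-0.61 ± 0.30, edgeR adjusted p = 0.685). The others were Pcdhb16 (-0.34 ± 0.23), Pcdha12 (-1.14 ± 0.68) and Pcdha9 (-0.26 ± 0.57), with adjusted p of 0.782, 0.761 and 0.944 in edgeR. Pcdhb8, with the smallest p here, went the other way at 0.958, 1.37 and 1.71 CPM in control and 2.27, 2.19 and 1.5 CPM in ESD (0.56 ± 0.26, edgeR adjusted p = 0.662). Beta genes as a whole were 9 higher and 12 lower with a median of -0.03, and without AGR cKO ESD 1 they were 13 higher with a median of 0.05.

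The alpha sum moved most of the 3 clusters in that comparison. It was 6.35, 7.47 and 5.4 CPM in AGR cKO control and 4.34, 4.36 and 3.53 CPM in AGR cKO ESD. The log2 ratio of means was -0.65 with no overlap between the groups, and no test was made on the sum. Of the 8 tested alpha genes, 3 were higher and 5 lower (median -0.42). With single libraries left out, 1 to 4 were higher and the median ran from -0.83 to -0.13. Pcdhac2, the highest alpha gene, went from a mean of 2.31 to 1.38 CPM, with overlap between the groups. The 10 neuron markers moved with the alpha sum: all 10 were negative for stress in AGR cKO (median -0.82). Their summed level was 35.3 to 50.2 CPM without and 18.6 to 23.6 CPM with separation. It was 21.6 to 28 CPM in Cre- control and 24.4 to 38.7 CPM in Cre- ESD. None of the 10 was at 0 in all libraries. The 6 mural and fibroblast markers were also lower, at 3665 to 4273 CPM in AGR cKO control and 1299 to 2937 CPM in AGR cKO ESD. The part of these other cells in the alpha values was not tested.

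**Figure D3:**
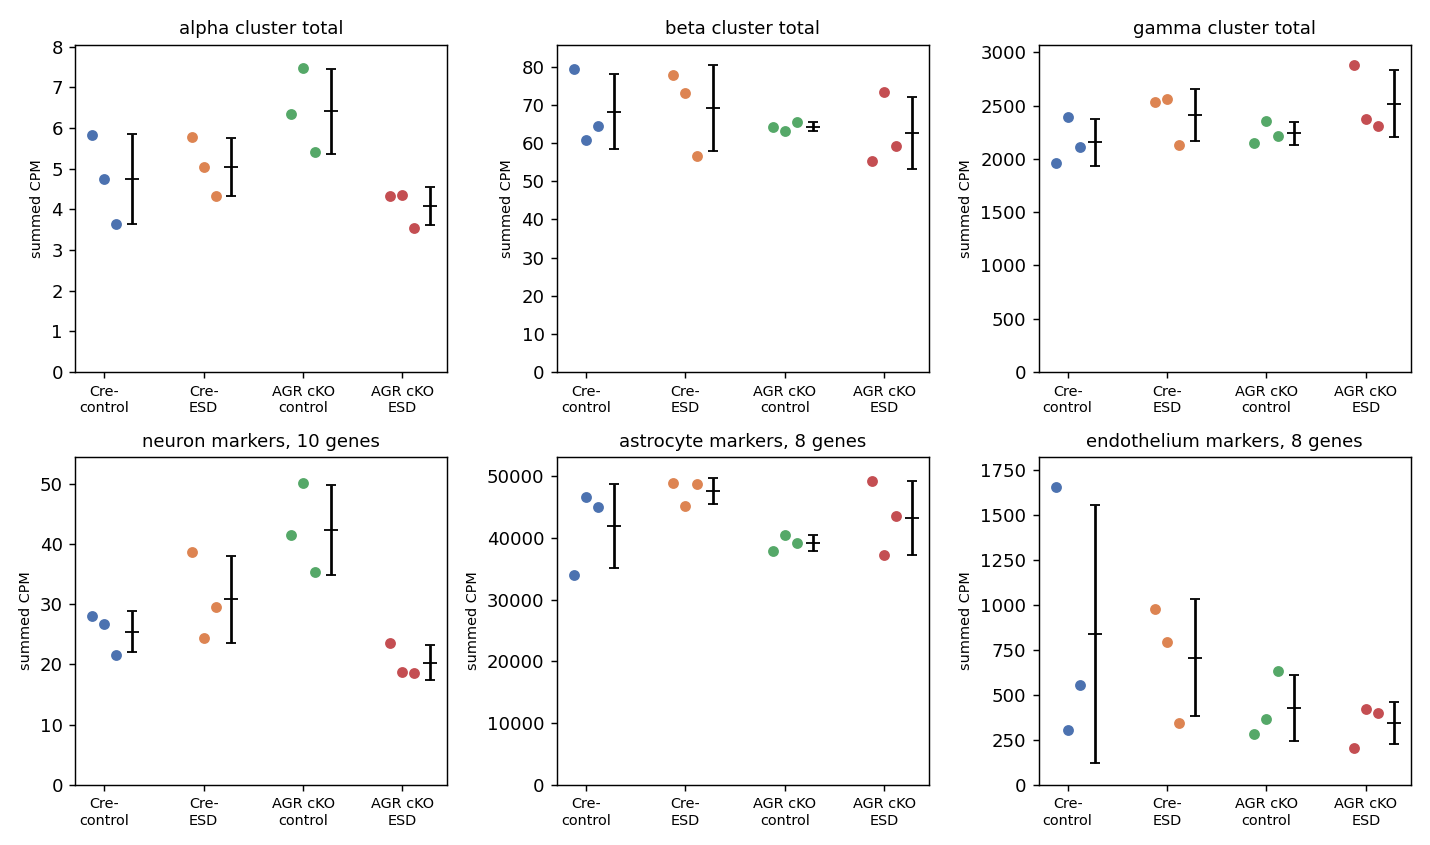
Summed CPM of the alpha, beta and gamma clusters (upper panels) and of the neuron, astrocyte and endothelium marker lists (lower panels). Points are single libraries by group, and the bar beside them is the mean ± SD of 3. The alpha sum and the neuron markers both have their highest group mean in AGR cKO control and their lowest in AGR cKO ESD, while the beta and gamma sums overlap between all groups.

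Averaged over both genotypes, stress gave positive values in 22 of 22 gamma genes (median 0.14, range 0.04 to 0.33), in 10 of 21 beta genes (median -0.01) and in 4 of 8 alpha genes. Over all genes 48% were positive with a median of -0.01. Astrocyte markers were positive in 7 of 8 (median 0.12), while endothelial (0 of 8, median -0.27), neuron (0 of 10, median -0.36) and ependymal markers (0 of 6, median -0.42) were negative. The part of these cells in the gamma values was not tested. Pcdhgc3, which alone makes up most of the gamma signal, was at 1107, 1382 and 1216 CPM in Cre- control, 1455, 1446 and 1269.8 in Cre- ESD, 1207, 1368 and 1305 in AGR cKO control and 1693, 1254 and 1364 in AGR cKO ESD. Its averaged stress value was 0.16 ± 0.09 (edgeR adjusted p = 0.526), with ESD and control libraries overlapping. Pcdhga12 had the smallest p of the gamma genes (0.15 ± 0.07, edgeR adjusted p = 0.485). Pcdhga11 was at 68.8, 84.2 and 68.6 CPM in Cre- control, 85.6, 92.4 and 72.7 in Cre- ESD, 74.8, 82.0 and 79.3 in AGR cKO control and 93.4, 93.8 and 70.2 in AGR cKO ESD (0.15 ± 0.09, edgeR adjusted p = 0.555), with overlap in both genotypes. Pcdhb6 had the smallest p of all members, at 0.54 ± 0.18 (edgeR adjusted p = 0.448), but overlapped in AGR cKO, where it was 1.88, 2.13 and 2.79 CPM in control and 2.99, 4.06 and 2.19 CPM in ESD. No member kept all 6 ESD libraries apart from all 6 control libraries, as 0.235% of genes did upward and 0.224% downward. The differences of 0.15 in the gamma cluster were not detectable gene by gene with 3 libraries a group, and gamma genes that share exons do not count as separate observations of them.

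**Figure D4:**
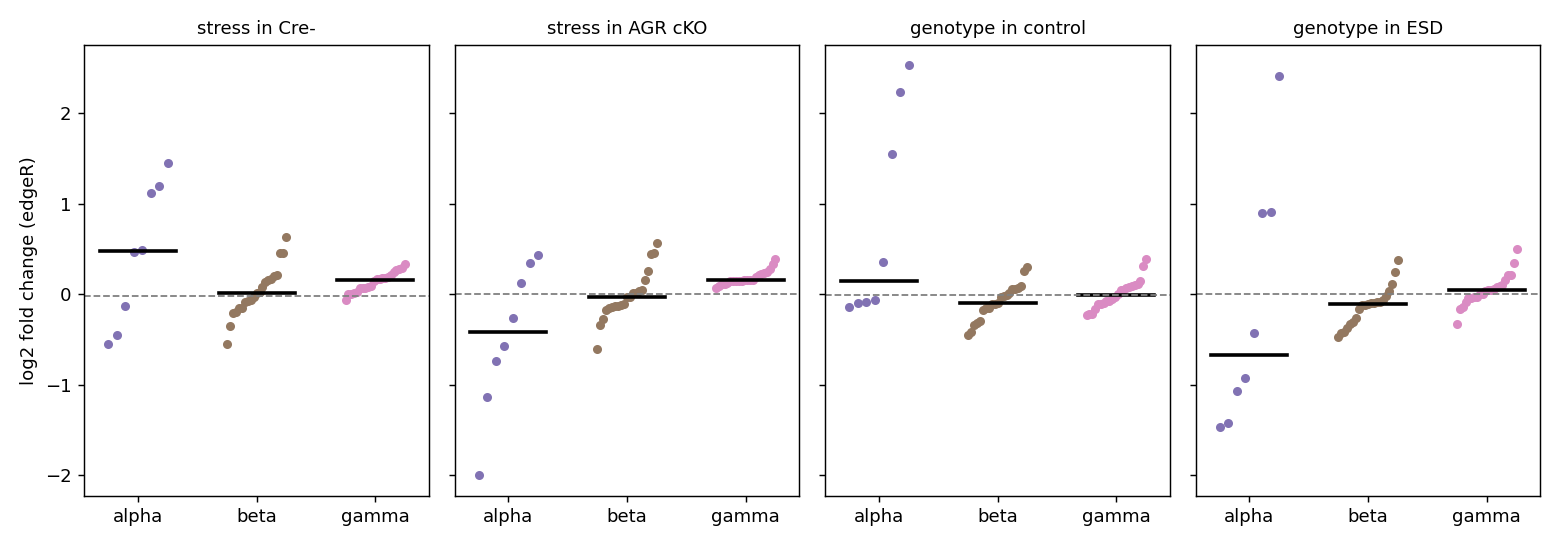
Log2 fold changes of the 51 tested members in the 4 pairwise comparisons, by cluster and sorted within it (edgeR); the black line is the cluster median and the dashed grey line the median of all 19163 genes. Gamma values sit above the grey line in both stress panels except Pcdhgb4 in the Cre- panel (-0.07), while beta values scatter around it and alpha values spread widest.

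The genotype comparisons ask what loss of the astrocyte receptor changes in control and in separated pups. Gamma genes as a group were centred near 0, with 10 of 22 positive in control (median -0.01) and 12 of 22 under ESD (median 0.04). Both medians took either sign as single libraries were left out, from -0.0637 to 0.103 in control and from -0.0466 to 0.0903 under ESD. Within the cluster the C-type genes Pcdhgc4 and Pcdhgc5 lay at the high end and Pcdhga2 at the low end. Pcdhgc4 was at 26.7, 39.4 and 28.9 CPM in Cre- control and 40.7, 42.3 and 41.4 CPM in AGR cKO control, and at 45.4, 44.7 and 24.9 CPM in Cre- ESD and 69.0, 53.0 and 40.7 CPM in AGR cKO ESD. Its groups did not overlap in control pups and overlapped under ESD. The log2 fold change averaged over rearing was 0.45 ± 0.17 (edgeR adjusted p = 0.163), with 0.39 ± 0.24 in control and 0.50 ± 0.24 under ESD.

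Pcdhgc5 showed the same layout, at 115, 155 and 133 CPM in Cre- control and 171, 175 and 155 CPM in AGR cKO control, then 174, 195 and 108 CPM in Cre- ESD and 235, 192 and 181 CPM in AGR cKO ESD. Under ESD the groups overlapped; in control pups they only just did not, the nearest libraries both rounding to 155 CPM and standing at 28.6 and 30.1 FPKM. Its value averaged over rearing was 0.33 ± 0.13 (edgeR adjusted p = 0.186). As a share of gamma FPKM it was 5.08% to 7.58% in the 6 Cre- libraries and 7.01% to 8.16% in the 6 AGR cKO libraries, and Pcdhgc4 was 1.09% to 1.67% and 1.65% to 2.24%. Pcdhgc3, their neighbour with the same constant exons, had 0.06 ± 0.09 (edgeR adjusted p = 0.788). The library Cre- ESD 3 was the lowest of the 12 for both Pcdhgc4 and Pcdhgc5, and without it the value under ESD was 0.27 for Pcdhgc4 and 0.14 for Pcdhgc5.

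Pcdhga2 had the smallest p of any member for genotype. It was at 28.3, 25.8 and 25.1 CPM in Cre- control and 23.3, 22.7 and 22.2 CPM in AGR cKO control, with no overlap, and at 33.7, 29.9 and 26.1 CPM in Cre- ESD and 25.1, 27.6 and 18.6 CPM in AGR cKO ESD, with overlap. The averaged value was -0.27 ± 0.10 (edgeR adjusted p = 0.137). Pcdhga12 did not overlap in control pups either, at 83.5, 78.1 and 82.0 CPM against 69.4, 74.6 and 73.9 CPM (-0.16 ± 0.10, edgeR adjusted p = 0.625), but did under ESD, at 94.2, 96.3 and 78.0 CPM against 92.4, 77.4 and 73.9 CPM. With Pcdhb3 (0.26 ± 0.29, edgeR adjusted p = 0.835), 3 members lay higher and 2 lower without overlap in control pups, where 8.54% and 8.39% of all genes did so. The 2 smallest p-values in control pups belonged to Pcdhgb2 (-0.22 ± 0.11, edgeR adjusted p = 0.568) and Pcdhgb1 (-0.23 ± 0.13, edgeR adjusted p = 0.594). Pcdhgb2 was at 28.3, 32.7 and 26.2 CPM in Cre- and 23.9, 27.7 and 23.5 CPM in AGR cKO control libraries, and Pcdhgb1 at 25.6, 32.4 and 39.0 CPM and 26.7, 27.5 and 28.6 CPM, so both overlapped. Averaged over rearing, 1.37% of all genes kept the 6 AGR cKO libraries above the 6 Cre- libraries and 1.4% below, and 0 members did either.

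**Figure D5:**
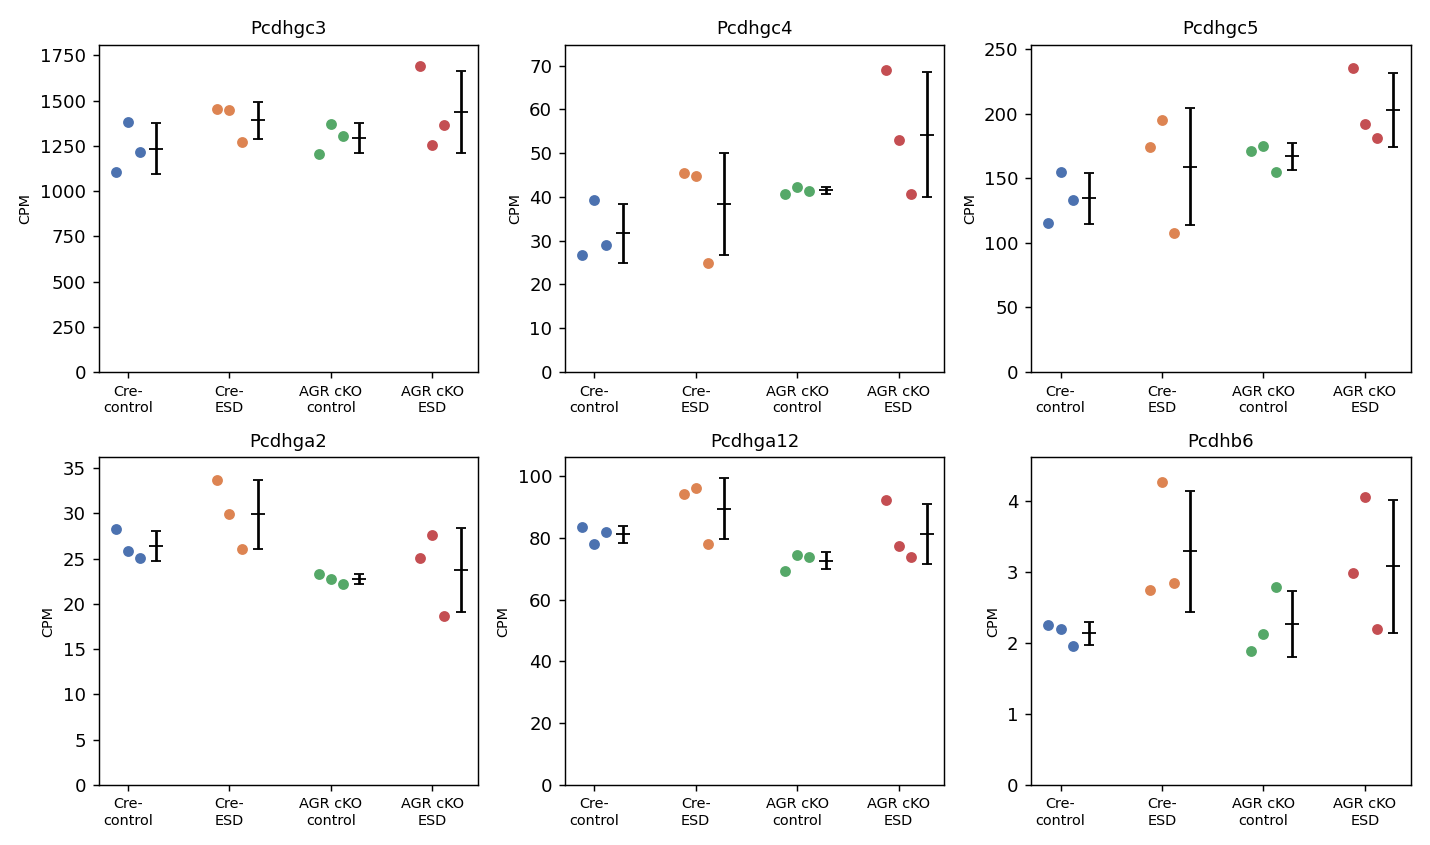
CPM of 6 members in each library by group (points), with the mean ± SD of 3 beside them. Pcdhgc4 and Pcdhgc5 stand higher and Pcdhga2 and Pcdhga12 lower in AGR cKO control than in Cre- control without overlap; between genotypes the ESD groups overlap in all 6.

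Beta genes leaned to the low side in AGR cKO, 14 of 21 in control (median -0.10), 17 of 21 under ESD (median -0.10) and 19 of 21 averaged over rearing (median -0.10, range -0.39 to 0.02). The percentage of all genes on the low side was near that on the high side, since 49.4% were positive for the averaged comparison. The lean was small beside the spread of the sums, which were 68.3 ± 9.91 (SD, n = 3) CPM in Cre- control, 69.2 ± 11.2 in Cre- ESD, 64.4 ± 1.25 in AGR cKO control and 62.7 ± 9.5 in AGR cKO ESD. Pcdhb16 was furthest (averaged -0.39 ± 0.16, edgeR adjusted p = 0.202), and under ESD it did not overlap. Pcdhb16 and Pcdha9 were the 2 members lower without overlap under ESD, where 9.64% of all genes were, and 0 members were higher, where 10.3% of all genes were. The lean depended on single libraries. In control pups, without Cre- control 1, 12 of 21 beta genes were positive with a median of 0.03. Under ESD the median was -0.31 without AGR cKO ESD 2, -0.22 without Cre- ESD 3 and -0.02 without Cre- ESD 1. Averaged over rearing, 0 to 9 of 21 were positive as single libraries were left out, with a median of -0.01 without Cre- control 1 and -0.19 without AGR cKO ESD 2. Endothelial markers were negative in 8 of 8 in both genotype comparisons (medians -0.98 and -1.02), at 305 to 1659 CPM for Cre- control, 346 to 979 CPM for Cre- ESD, 281 to 636 CPM for AGR cKO control and 207 to 421 CPM for AGR cKO ESD. Microglial markers were negative in 8 of 8 as well (medians -1.12 and -1.09), at 287 to 831, 393 to 662, 156 to 368 and 134 to 354 CPM in the same order. Cre- control 1 was highest for both marker lists and for the beta sum (79.5 CPM), and the part of these cells in the beta values was not tested.

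Alpha genes gave the widest genotype values and no calls. Pcdha9 had the smallest p under ESD, with 22, 26 and 63 counts in Cre- ESD and 15, 12 and 13 in AGR cKO ESD (-1.47 ± 0.55, edgeR adjusted p = 0.232), and without Cre- ESD 3 the value was -0.78. Pcdha4 was at 2.47 ± 1.04 averaged over rearing (edgeR adjusted p = 0.211), resting on 31, 11, 27, 0, 85 and 7 counts in AGR cKO against 11, 0, 0, 7, 10 and 0 in Cre-. The alpha sums were 4.74 ± 1.11 (SD, n = 3) CPM in Cre- control, 6.41 ± 1.04 in AGR cKO control, 5.05 ± 0.718 in Cre- ESD and 4.07 ± 0.473 in AGR cKO ESD. The direction of the alpha sum thus differed between control pups (log2 ratio 0.43) and separated pups (-0.31). The alpha sums overlapped between genotypes in both. The direction of the neuron markers differed likewise (medians 0.48 and -0.60), but their sums did not overlap between genotypes. These were 21.6 to 28 CPM in Cre- control and 35.3 to 50.2 CPM in AGR cKO control. Under ESD they were 24.4 to 38.7 CPM in Cre- and 18.6 to 23.6 CPM in AGR cKO. Pcdhb1, which was not tested, had 8, 6 and 6 counts in Cre- ESD and 0, 0 and 0 in AGR cKO ESD. With a floor of 3 counts over the AGR cKO ESD group it was 6.55-fold lower. That value takes the 20 counts of Cre- ESD as exact. It was picked out after its values were seen, and in a fit with no filter on low counts its adjusted p was 0.0785 in edgeR.

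The interaction asks whether the stress difference depends on the receptor. Gamma genes were 15 positive and 7 negative (median 0.05), beta genes 8 and 13 (median -0.06), and alpha genes 1 and 7 (median -1.17), with 53.1% of all genes positive. The gamma median turned to -0.05 without AGR cKO ESD 1, -0.07 without Cre- ESD 3 and -0.06 without Cre- control 2, with 7, 9 and 9 positive genes. The beta median turned to 0.01 without Cre- control 2, with 12 positive genes, and the alpha median ran from -1.74 without Cre- control 1 to -0.64 without Cre- control 3. Neuron markers were negative in 10 of 10 for the interaction (median -1.12), and their part in the alpha values was not tested. The 2 smallest p-values belonged to Pcdhb8 (0.72 ± 0.37) and Pcdha9 (-1.39 ± 0.79), each with an adjusted p of 0.999 in edgeR. Pcdhgc3 was at -0.02 ± 0.18. A difference between the genotypes in the stress values of these genes was not detectable with 3 libraries a group.

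Genes that work with the clusters showed few differences. Of 26 regulators of the clusters, among them the architectural protein Ctcf, cohesin and its loader and release factors, DNA methyltransferases, Smchd1 and the histone methyltransferase Setdb1, 0 were called in any of the 7 comparisons by edgeR, where at most 3.49% of all genes were. Setdb1, which restrains the locus by histone methylation, came closest (genotype averaged over rearing 0.19 ± 0.05, adjusted p = 0.0515, edgeR), followed by Ehmt2, another histone methyltransferase (0.20 ± 0.06, adjusted p = 0.0945, edgeR). Outside the rule for named genes, Ctcf stood at 60.8 to 70.7 CPM in all 12 libraries and Smchd1 at 63.0 to 75.0 CPM.

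Of 22 cytoplasmic and membrane partners, Nlgn2 and Wasf1 rose in AGR cKO averaged over rearing and none fell, in a comparison that called 3.49% of all genes. Nlgn2, a neuroligin that on astrocytes takes part in contacts with neurites, was at 121, 143 and 125 CPM in Cre- control, 122, 114 and 115 in Cre- ESD, 147, 163 and 157 in AGR cKO control and 163, 161 and 154 in AGR cKO ESD. All 6 AGR cKO libraries were above all 6 Cre- libraries (0.36 ± 0.05, adjusted p = 0.00762, edgeR). Wasf1, an actin regulator of the WAVE complex to which protocadherin tails can bind, was at 17.4 to 25.5 CPM in the 6 Cre- and 26.4 to 35.7 CPM in the 6 AGR cKO libraries (0.46 ± 0.10, adjusted p = 0.03, edgeR). Its call was lost without any 1 of 7 libraries (Cre- control 3, AGR cKO control 1, 2 or 3, Cre- ESD 1 or 3, AGR cKO ESD 1; adjusted p = 0.0521 to 0.0897, edgeR), while that of Nlgn2 was kept in every such fit.

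Of the 12 non-clustered protocadherins, which stand alone in the genome and have their own cytoplasmic ends, 1 rose in AGR cKO, again beside 3.49% of all genes called. Pcdh8, an activity-regulated protocadherin, was at 23.9, 29.3 and 30.4 CPM in Cre- control, 20.4, 25.1 and 14.7 in Cre- ESD, 39.2, 41.1 and 34.2 in AGR cKO control and 36.2, 41.6 and 43.7 in AGR cKO ESD. The 6 AGR cKO libraries lay above the 6 Cre- libraries (0.73 ± 0.12 averaged over rearing, adjusted p = 0.0101, edgeR), and that call was kept with each library left out in turn. The most abundant of the list were Pcdh10 at a mean of 67.2 FPKM and Pcdh1 at 23.7 FPKM, neither of which was called. Against these, Pcdhgc3 at 258 FPKM was the highest protocadherin of either kind, and Pcdhgc5 at 31.7 FPKM lay between Pcdh10 and Pcdh1.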

How the data were processed

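Bulk RNA sequencing of 12 libraries in 4 groups of 3 was used. The authors deposited whole-number read counts per gene. Per the file headers the same table gives FPKM and TPM, both normalized by the authors. Build mm10, StringTie 1.3.4b, HISAT2 2.1.0, Trimmomatic and DESeq2 are named, with no roles, per the submitters' processing notes. Per the labels' protocols the library kit was stranded, but whether counting used strand, and how reads of shared exons were divided, is not given in the sources used here.

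Sample titles gave the groups, because the numerals in the genotype entries increase from replicate to replicate (Nr3c2, CreERT3 and the like). Column names with cre_M and cre_P were read as Cre minus and Cre plus.

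Counts were tested with edgeR 4.0.16 in R 4.3.3: filterByExpr (19163 genes), TMM scaling, 1 mean per group, quasi-likelihood F tests with 8 residual degrees of freedom, two-sided, Benjamini-Hochberg adjustment over all genes tested, called at 0.05. For 1 gene, an exact permutation of 3 libraries against 3 has a smallest two-sided p of 0.1. The alternatives were DESeq2 1.42.0, limma-trend (limma 3.58.1) on log2(TPM + 1) and log2(TPM + 0.1), other scalings and filters, only the groups compared, a replicate block, an adjusted p under 0.1, and each library left out. The main edgeR procedure was tested on simulated data. Sequence sharing was computed from GENCODE M21 transcripts for the 57 members that matched. SE is the log2 fold change over the square root of F. The floor of 3 counts covers counting error only.

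Members were taken by symbol, and the 11 gene lists (118 genes) by textbook knowledge, with earlier results of these data known. Named in full were the C-type members, the 4 highest of each cluster by FPKM, called members, the 2 smallest p-values of each comparison, and from 3 lists the called genes or the 2 smallest p-values. Pcdha4, Pcdhb1, Pcdhb3, Pcdhb16, Ctcf and Smchd1 fall outside this rule and were added after their values were seen.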

Additional observations from a re-analysis of the deposited data

How the results depend on the processing

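The number of called members was 0 in edgeR in all 7 comparisons and stayed 0 in all 151 alternative counts, among them DESeq2, limma-trend on TPM, an adjusted p under 0.1, the replicate block and each library left out in turn. The count at 0.1 does not cover the fit with no filter on low counts. There Pcdhb1, which the main filter left out, had an adjusted p of 0.0785 in edgeR for genotype under ESD. The 108 alternative values of the cluster sums moved by less than the spread between libraries. Of the named genes, 582 alternative values kept their direction and side of the threshold and 30 kept the direction but lost the call, all of Nr3c1, Pcdh8, Nlgn2 or Wasf1. Under ESD the genotype call of Pcdh8 (1.01 ± 0.17, adjusted p = 0.0307, edgeR) was lost with only the groups compared or without any 1 of 7 libraries (adjusted p = 0.0542 to 0.155), and that of Nlgn2 (0.45 ± 0.08, adjusted p = 0.031, edgeR) likewise (0.0563 to 0.155). Pcdhgc3 for genotype averaged over rearing went from 0.06 to -0.000127 without AGR cKO ESD 1, in a range of -0.000127 to 0.108 with each library left out; the cause was not tested. Positive gamma genes numbered 17 to 21 of 22 for stress in Cre-, 20 to 22 for stress in AGR cKO and 21 or 22 for stress averaged over genotypes, over all settings run. For genotype averaged over rearing the gamma median changed sign with the scaling (-0.000124 to 0.00112). Deviations from the group means correlated at -0.104 to 0.227 (median 0.0384) in the 18 pairs of libraries with the same replicate number. In the 36 other pairs they correlated at -0.223 to 0.167 (median -0.00274), so same-number pairs were not clearly apart. The replicate block gave 0 called members, as every setting did, so that count cannot bear on pairing. Depth limits the alpha genes most: 6 of 14 were not tested, and Pcdhac2 was the best counted at 33 to 157 counts per library.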
